A study of Mus musculus with 6 samples.

Results

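The genes described here are the 53 genes with a Gpr symbol, the name given to G protein-coupled receptors before a ligand was known, among 9612 genes measured around a transcription start. A gene was taken when the symbol listed for it beside a peak was Gpr followed by a number, so every gene had at least 1 listed peak on at least 1 of the 6 arrays, and Gpr genes without any listed peak were not analysed here. Ezh2 on DNA was read from chromatin immunoprecipitates hybridised to promoter tiling arrays, in mouse embryonic stem (ES) cells, with immunoprecipitated DNA in the Cy5 channel and input DNA in the Cy3 channel of every array. R1 ES cells had received either control siRNA or Brca1 specific siRNA 48 hours before harvest, with 1 array each. The AB2.2 line (wild-type Brca1) and the PL2F8 line (Brca1 deficient), both of strain 129/SvEvBrd-Hprtb-m2, had 2 arrays each. Each Brca1 state is 1 line, so any other difference between the lines cannot be told apart from Brca1, and the labels do not say that duplicates were separate cultures, so p-values measure only the spread between these arrays. The question addressed is whether Ezh2 changes place or amount on DNA when Brca1 is lost. DNA arrays cannot check the Brca1 protein or the identity of the cells.

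G protein-coupled receptors cross the membrane in a bundle of helices and pass the binding of an outside signal to G proteins, which act on adenylyl cyclases, phospholipases and ion channels. Many orphan members are known from the nervous system, immune cells or metabolic tissues. Ezh2 is the catalytic subunit of Polycomb repressive complex 2, which methylates a lysine in the tail of histone H3 and in ES cells sits mainly at CpG-rich starts of silent developmental genes.

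The values below are log2 ratios of ChIP over input, so a difference of 1 is a doubling of the ratio. A gene value is the mean of all probes within 2000 bp of a listed start, after each array was centred on its median. Only 4 of the 53 genes had probes more than 1000 bp downstream of the start, and 40 had any beyond 750 bp, so the window covers the upstream side and the first stretch of the gene. The promoters printed here, from RefSeq on build GRCm38.p6, belong to the 3 genes with the highest Ezh2 signal and to 2 with low signal among those with a single promoter in the table. Each runs 5′ to 3′ on the gene's strand from 250 bases before to 50 bases after the RefSeq start, with every CG dinucleotide in capitals. They lie at chrX:71663417-71663716 (plus strand, Gpr50), chr6:25689931-25690230 (minus, Gpr37), chr10:41072241-41072540 (minus, Gpr6), chr8:95017442-95017741 (plus, Gpr97, named Adgrg3 in RefSeq) and chrX:152368669-152368968 (minus, Gpr173).
Gpr50: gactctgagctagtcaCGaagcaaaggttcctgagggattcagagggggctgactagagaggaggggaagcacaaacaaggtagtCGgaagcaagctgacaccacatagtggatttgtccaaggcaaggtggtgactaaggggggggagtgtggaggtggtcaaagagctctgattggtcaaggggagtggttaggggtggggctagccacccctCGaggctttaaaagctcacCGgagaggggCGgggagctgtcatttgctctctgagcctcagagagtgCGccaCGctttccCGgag
Gpr37: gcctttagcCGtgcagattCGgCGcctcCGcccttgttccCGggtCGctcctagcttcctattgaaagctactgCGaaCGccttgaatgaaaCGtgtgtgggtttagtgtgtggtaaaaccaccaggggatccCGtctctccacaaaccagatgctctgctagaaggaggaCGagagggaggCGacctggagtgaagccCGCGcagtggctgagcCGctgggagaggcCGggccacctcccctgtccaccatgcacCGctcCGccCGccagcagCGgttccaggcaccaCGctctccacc
Gpr6: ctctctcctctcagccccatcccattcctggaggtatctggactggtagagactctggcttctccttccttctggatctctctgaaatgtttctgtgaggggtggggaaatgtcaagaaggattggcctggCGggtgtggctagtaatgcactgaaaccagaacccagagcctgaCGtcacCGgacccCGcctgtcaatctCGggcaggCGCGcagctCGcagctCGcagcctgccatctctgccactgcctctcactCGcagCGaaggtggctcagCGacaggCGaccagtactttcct
Gpr97: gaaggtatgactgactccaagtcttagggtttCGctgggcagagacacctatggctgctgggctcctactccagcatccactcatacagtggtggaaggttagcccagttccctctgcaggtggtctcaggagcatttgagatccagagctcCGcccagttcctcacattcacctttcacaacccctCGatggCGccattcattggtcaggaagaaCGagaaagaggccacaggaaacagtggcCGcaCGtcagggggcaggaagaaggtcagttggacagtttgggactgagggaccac
Gpr173: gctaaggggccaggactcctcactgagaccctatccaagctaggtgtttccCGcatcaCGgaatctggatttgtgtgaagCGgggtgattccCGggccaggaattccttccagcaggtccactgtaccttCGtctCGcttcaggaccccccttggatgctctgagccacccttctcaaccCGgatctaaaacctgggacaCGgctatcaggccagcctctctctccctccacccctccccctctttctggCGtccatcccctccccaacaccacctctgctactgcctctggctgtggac
The motif counted is CG, which reads the same on both strands. Gpr37 holds 21 of them and Gpr6 holds 13, while Gpr50, the gene with the highest signal, holds 8. The promoters of Gpr97 and Gpr173, where the signal was near or below the array median, hold 7 and 9. A CG is present in 94.6% of all 32851 promoters of this length in the table, with a median of 7 per promoter. In these 5 sequences the count of CG did not follow the order of the Ezh2 signal.

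The deposited arrays had medians between 0.02 and 0.04. Over all genes, the duplicates correlated at r = 0.989 in AB2.2 and r = 0.998 in PL2F8, and the R1 pair at r = 0.948. The difference between the 2 arrays had a standard deviation (SD) over genes of 0.123 in AB2.2, 0.061 in PL2F8 and 0.262 in R1. AB2.2 replicate 1 read above replicate 2 at 47 of the 53 Gpr genes, and PL2F8 replicate 1 above replicate 2 at 47.

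Most of these receptor genes carried Ezh2 signal, and 35 of the 53 (66%) had a listed peak on all 6 arrays. Among all genes that share was 38.6%. The median gene value was 0.76 and 0.68 in AB2.2, 1.18 and 1.08 in PL2F8, and 0.88 and 0.95 in R1 with control and Brca1 siRNA. For all genes the same medians were 0.35, 0.27, 0.59, 0.55, 0.49 and 0.52. For comparison, 62 of 76 neurotransmitter receptor genes (81.6%) and 6 of 130 olfactory receptor genes (4.62%) had a peak on all 6 arrays. These shares are descriptions of genes that had to have a listed peak to be named, and differences between the groups of genes were not tested.

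**Figure D1:**
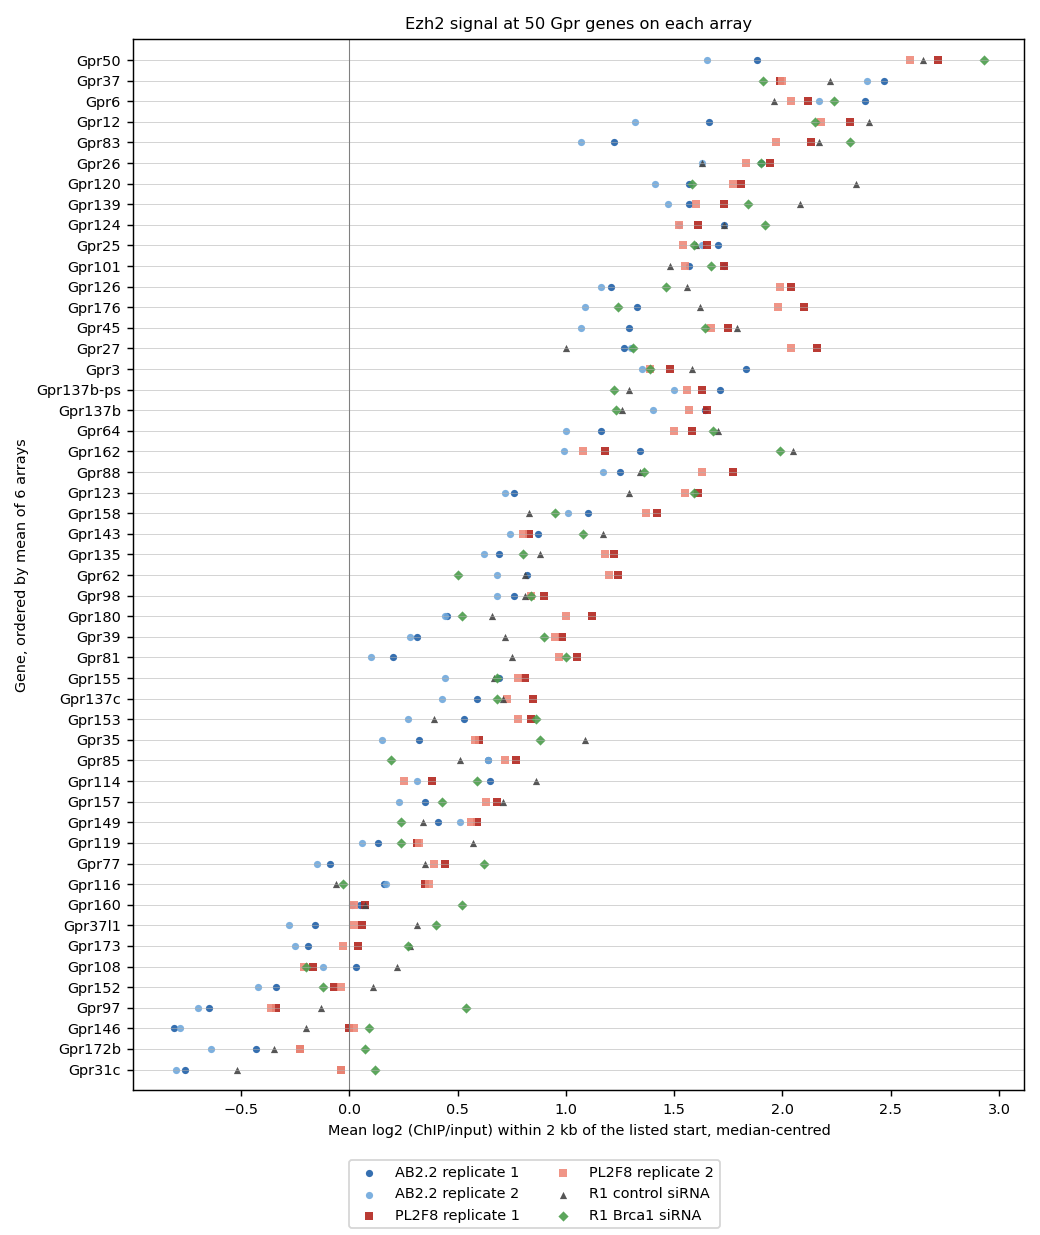
Mean log2 ratio of ChIP over input within 2000 bp of the listed start (horizontal axis) at 50 of the 53 Gpr genes (vertical axis, ordered by the mean of 6 arrays), with 1 point per array. Gpr50 is at the top with values from 1.65 to 2.93, and Gpr31c at the bottom with values from -0.8 to 0.12.

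The highest mean over the 6 arrays, 2.40, was at Gpr50 (start listed on chromosome X at 68916941, plus strand, in a build that the sources used here do not name). Gpr50 encodes a relative of the melatonin receptors that does not bind melatonin. Its values were 1.88 and 1.65 in AB2.2, 2.72 and 2.59 in PL2F8, 2.65 with control siRNA and 2.93 with Brca1 siRNA. Both AB2.2 arrays lay below the other 4.

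Gpr37, which encodes a brain receptor that is a substrate of the ubiquitin ligase parkin, came next with a mean of 2.16. It read 2.47 and 2.39 in AB2.2, 1.99 and 2.00 in PL2F8, 2.22 with control siRNA and 1.91 with Brca1 siRNA. Here the AB2.2 arrays were the highest of the 6. Of all genes, 94.5% had a lower mean than Gpr37. Because probes differ in how they respond, the order between genes is a description.

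The receptors of the Gpr3, Gpr6 and Gpr12 family raise cyclic AMP without a known need for ligand, and Gpr3 keeps mouse oocytes in meiotic arrest. All 3 had a listed peak on all 6 arrays. Gpr6 read 2.38 and 2.17 in AB2.2, 2.12 and 2.04 in PL2F8, 1.96 with control siRNA and 2.24 with Brca1 siRNA. Gpr12 read 1.66 and 1.32 in AB2.2, 2.31 and 2.18 in PL2F8, 2.40 with control siRNA and 2.15 with Brca1 siRNA. The AB2.2 arrays lay lowest at Gpr12 and not at Gpr6. Gpr3 read 1.83 and 1.35 in AB2.2, 1.48 and 1.39 in PL2F8, 1.58 with control siRNA and 1.39 with Brca1 siRNA, so its groups overlapped.

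The other genes among the 8 highest were Gpr83, Gpr26, Gpr120 and Gpr139. Gpr83, whose product binds a peptide made from proSAAS, read 1.22 and 1.07 in AB2.2, 2.13 and 1.97 in PL2F8, 2.17 with control siRNA and 2.31 with Brca1 siRNA. Gpr26, a brain orphan, read 1.90 and 1.63 in AB2.2, 1.94 and 1.83 in PL2F8, 1.63 with control siRNA and 1.90 with Brca1 siRNA. The lines were apart at Gpr83 and overlapped at Gpr26. Gpr120, the receptor for long-chain fatty acids, read 1.57 and 1.41 in AB2.2, 1.81 and 1.77 in PL2F8, 2.34 with control siRNA and 1.58 with Brca1 siRNA. Gpr139, a receptor of the habenula, read 1.57 and 1.47 in AB2.2, 1.73 and 1.60 in PL2F8, 2.08 with control siRNA and 1.84 with Brca1 siRNA. At both genes the control siRNA array was the highest of the 6.

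At the other end, 6 genes had a mean below the array median. Gpr31c read -0.76 and -0.80 in AB2.2, -0.04 on both PL2F8 arrays, -0.52 with control siRNA and 0.12 with Brca1 siRNA. All probes of Gpr31c, Gpr137b and Gpr137b-ps are listed for more than 1 genome position, so the signal of each cannot be told apart from that of its copies. Gpr172b, a riboflavin transporter that was first named as a receptor, read -0.43 and -0.64 in AB2.2, -0.23 on both PL2F8 arrays, -0.35 with control siRNA and 0.07 with Brca1 siRNA. Gpr146, which acts on plasma cholesterol in the liver, read -0.81 and -0.78 in AB2.2, 0.00 and 0.02 in PL2F8, -0.20 with control siRNA and 0.09 with Brca1 siRNA. The lowest values of these genes were those of AB2.2.

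Gpr97, an adhesion receptor of granulocytes, read -0.65 and -0.70 in AB2.2, -0.34 and -0.36 in PL2F8, -0.13 with control siRNA and 0.54 with Brca1 siRNA. Gpr152, an orphan with no settled role, read -0.34 and -0.42 in AB2.2, -0.07 and -0.04 in PL2F8, 0.11 with control siRNA and -0.12 with Brca1 siRNA. Gpr108, a protein of the Golgi, read 0.03 and -0.12 in AB2.2, -0.17 and -0.21 in PL2F8, 0.22 with control siRNA and -0.20 with Brca1 siRNA. Windows of some genes were shared with a neighbour: 22 of 32 probes of Gpr108 also belonged to Trip10, 36 of 39 of Gpr137c to Txndc16, 37 of 38 of Gpr152 to Cabp4 and 38 of 40 of Gpr172b to Fbxl6. The values of these 4 genes therefore describe both starts.

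Along the gene, Ezh2 signal averaged over the 53 genes was higher nearer the start and highest downstream of it. The highest bin was 250 to 500 bp downstream in PL2F8 and 500 to 750 bp downstream in AB2.2 and R1. In the latter bin AB2.2 read 1.74 and 1.56, and R1 read 2.04 and 1.95. Only 40 genes had probes in the next bin. Between 2000 and 1750 bp upstream the signal was 0.07 and 0.09 in AB2.2 and 0.25 and 0.20 in PL2F8. In the bin from 250 to 500 bp downstream it was 1.70 and 1.40 in AB2.2, 2.15 and 2.02 in PL2F8, 1.96 with control siRNA and 1.94 with Brca1 siRNA. In the 35 genes whose peak was listed on all 6 arrays the same bin read 2.38 and 1.99 in AB2.2, 2.88 and 2.73 in PL2F8, 2.57 and 2.56 in R1. The other 18 genes read between 0.24 and 0.78 there. The authors' deposited peaks at the Gpr genes had median distances from the start between 154 and 236 bp downstream on the 6 arrays, and median widths between 455 and 540 bp.

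**Figure D2:**
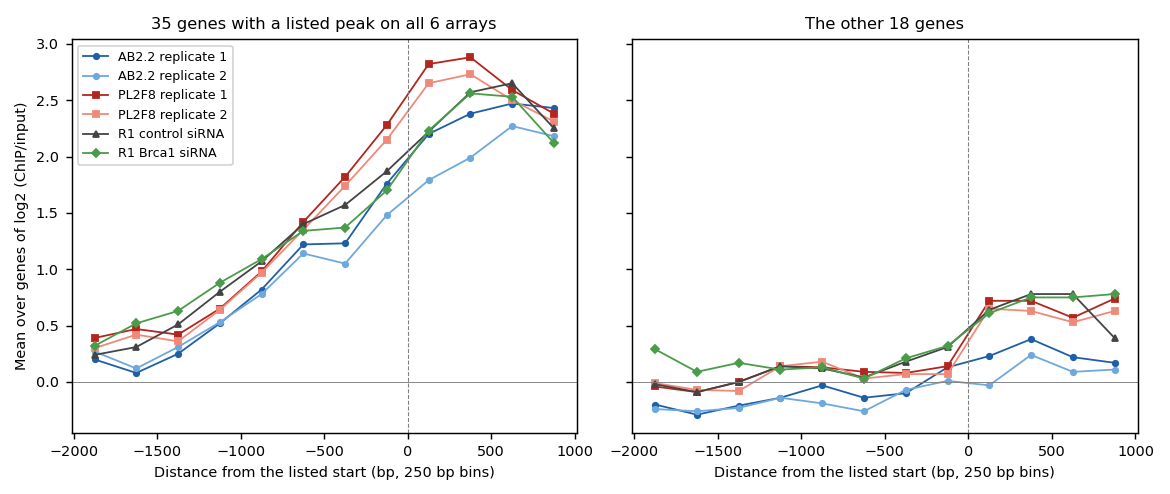
Mean log2 ratio of ChIP over input over genes (vertical axis) in 250 bp bins of distance from the listed start (horizontal axis, positive in the direction of transcription), 1 line per array, for 35 genes with a listed peak on all 6 arrays and for the other 18. Bins held by few genes are not drawn, and in the first group the PL2F8 lines are highest from 0 to 500 bp downstream.

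Between the lines, the Gpr genes moved as most genes did: Ezh2 signal was higher in PL2F8 than in AB2.2 at 34 of the 53 genes (64.2%), and lower at 1, Gpr37, while 18 did not pass the test. Over all 9612 genes, limma called 63.5% higher and 8.5% lower, at an adjusted p under 0.05 (Benjamini-Hochberg over all genes). The median difference was 0.30 for the Gpr genes and 0.30 for all genes, so the rise of these receptors is near that of the genes measured. Each of those genes also had a listed peak on at least 1 array. Arrays were centred on their median over all probes, so this is not a rise of the whole array. The share of genes called and higher by at least 0.5 was also near its background, with 16 Gpr genes against 26.5% of all genes. None was called and lower by 0.5 or more, where all genes gave 1.89%. Both PL2F8 arrays lay above both AB2.2 arrays at 39 Gpr genes, beside 74.1% of all genes, and below them at 3, beside 14%. With quantile normalization, which moved the median of all genes from 0.30 to 0.14, 27 Gpr genes were called higher and 12 lower, beside 50% and 20.5% of all genes. Without AB2.2 replicate 2, 34 were called higher and 7 lower, beside 63.9% and 12.4% of all genes.

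The largest rise was at Gpr83, from 1.15 ± 0.11 to 2.05 ± 0.11 (mean ± SD, n = 2 arrays per line, as for the other means below), a difference of 0.90 with a moderated standard error (SE) of 0.08 and a limma adjusted p of 8.8e-05. This is 1.87-fold on the scale of the ratio. Gpr50 rose by 0.89 (SE 0.09, limma adjusted p = 0.00012), from 1.76 ± 0.16 to 2.65 ± 0.10. These are among the genes with the highest signal, and both were already marked by a peak on every AB2.2 array.

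Gpr81, the lactate receptor of fat cells, had little signal in AB2.2, with 0.20 and 0.10, against 1.05 and 0.97 in PL2F8, and read 0.75 with control siRNA and 1.00 with Brca1 siRNA. Its difference was 0.86 (SE 0.07, limma adjusted p = 6.7e-05). No peak was listed at Gpr81 on either AB2.2 array, and the other 4 arrays each had one. Gpr146 rose by 0.80 (SE 0.06, limma adjusted p = 6.5e-05) from below the array median to about 0.

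The adhesion receptors Gpr123 and Gpr126 rose by similar amounts. Gpr126, which Schwann cells need for myelination, read 1.21 and 1.16 in AB2.2, 2.04 and 1.99 in PL2F8, 1.56 with control siRNA and 1.46 with Brca1 siRNA, a difference of 0.83 (SE 0.06, limma adjusted p = 6.5e-05). Gpr123, a receptor of the brain, read 0.76 and 0.72 in AB2.2, 1.61 and 1.55 in PL2F8, 1.29 with control siRNA and 1.59 with Brca1 siRNA, a difference of 0.84 (SE 0.06, limma adjusted p = 6.5e-05). The R1 arrays lay between the lines at both genes, apart from the Brca1 siRNA array at Gpr123, which lay within the PL2F8 pair.

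Gpr176, an orphan of the circadian clock in the suprachiasmatic nucleus, read 1.33 and 1.09 in AB2.2, 2.10 and 1.98 in PL2F8, 1.62 with control siRNA and 1.24 with Brca1 siRNA. It rose by 0.83 (SE 0.09, limma adjusted p = 0.00016). Gpr27 belongs with Gpr85 and Gpr173 to a family of brain receptors whose sequence is strongly conserved in vertebrates. Gpr27 read 1.27 and 1.30 in AB2.2, 2.16 and 2.04 in PL2F8, 1.00 with control siRNA and 1.31 with Brca1 siRNA, and rose by 0.81 (SE 0.07, limma adjusted p = 7.2e-05). Within the family Gpr173 rose by 0.23 (SE 0.06, limma adjusted p = 0.0134), while Gpr85 differed by 0.10 (SE 0.06, limma adjusted p = 0.168). With the median of probes in place of the mean, Gpr173 read -0.0025 and Gpr85 read -0.40.

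The one fall was at Gpr37, from 2.43 ± 0.06 in AB2.2 to 1.99 ± 0.01 in PL2F8, a difference of -0.44 (SE 0.06, limma adjusted p = 0.00054), or 0.74 of the ratio. The probes show that the fall was not uniform over the window. At 302 bp upstream the ratio was 5.44 and 5.40 in AB2.2 against 3.65 and 3.68 in PL2F8, and at 698 bp downstream it was 6.64 and 6.62 against 5.02 and 5.14. At 198 bp downstream, between these places, it was 3.26 and 2.61 in AB2.2 against 4.19 and 3.95 in PL2F8. The authors' deposited peaks at Gpr37 covered chr6:25640102-25640431 on both AB2.2 arrays and chr6:25639182-25640331 on both PL2F8 arrays. With the median of probes in place of the mean the difference was -0.14 (limma adjusted p = 0.175), which ends the call.

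**Figure D3:**
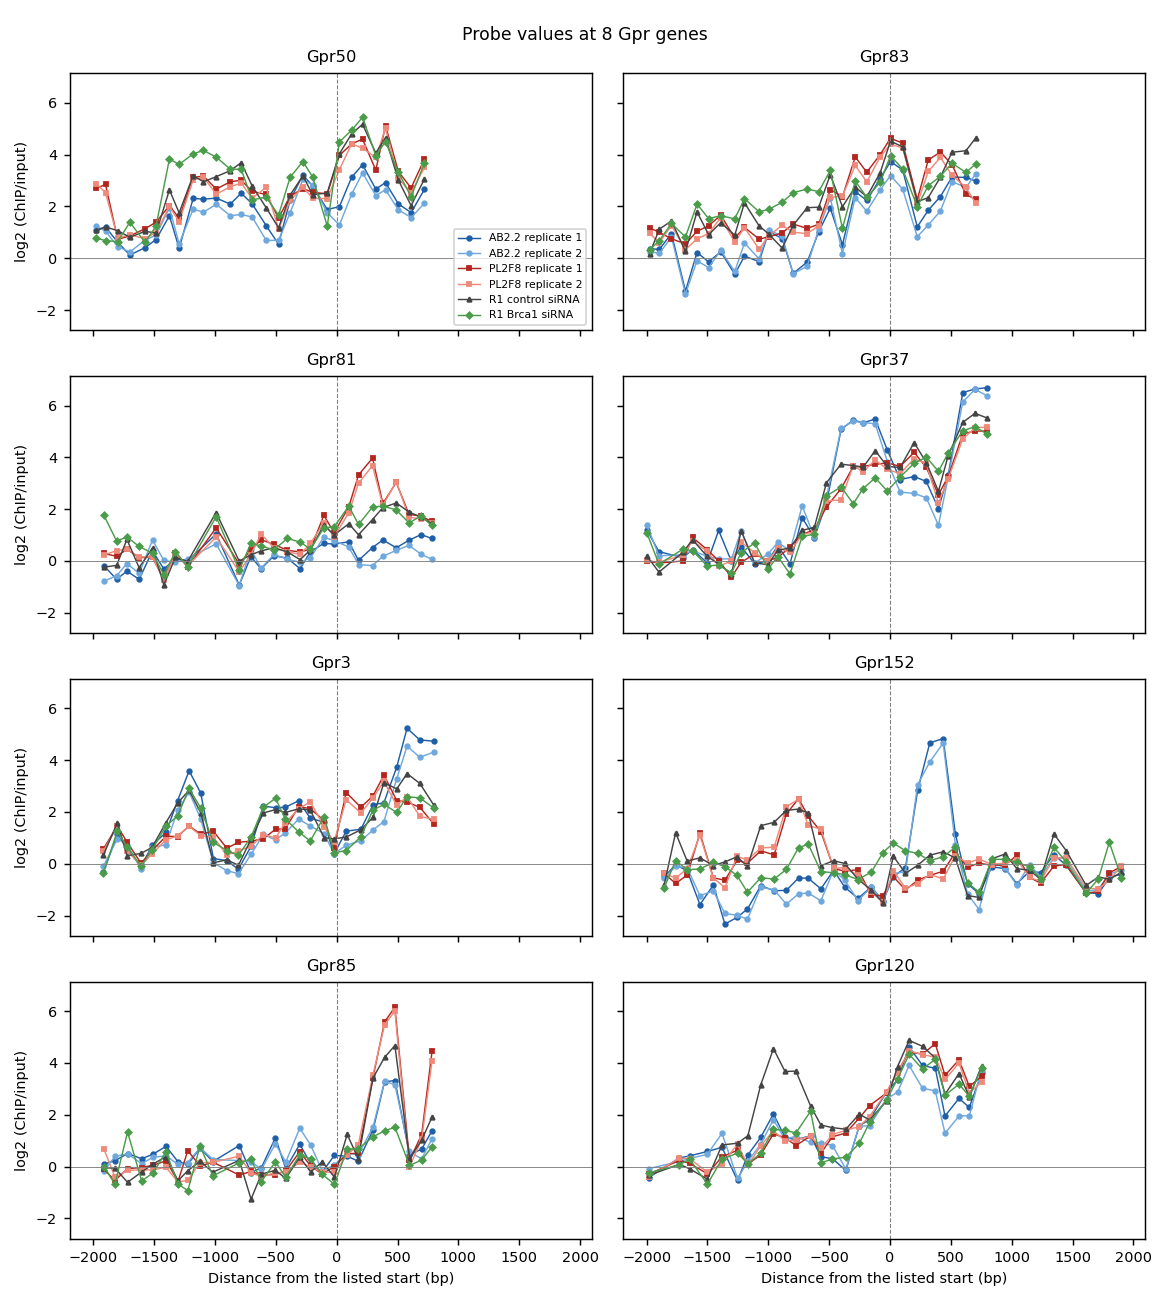
Log2 ratio of ChIP over input of every probe (vertical axis) by distance from the listed start (horizontal axis, positive in the direction of transcription) at 8 Gpr genes, 1 line per array. At Gpr37 the AB2.2 lines are above the others on both sides of the start and below PL2F8 between them, and at Gpr85 the PL2F8 lines are the highest and the Brca1 siRNA line the lowest at 393 and 478 bp downstream.

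By the kind of receptor, all 6 genes for receptors of lipids, metabolites and ions were called higher, beside 63.5% of all genes. They were Gpr81, Gpr120, Gpr119 of the gut and pancreatic islets, the zinc receptor Gpr39, Gpr35 and Gpr31c. Gpr31c had listed peaks on the PL2F8 arrays alone, so it was in the set only through the line where it was called higher. Its probes are also all listed for more than 1 genome position. Their differences ranged from 0.22 to 0.86. With the median of probes Gpr119 and Gpr120 lost the call (limma adjusted p = 0.374 and 0.491), as did Gpr120 with quantile normalization (0.07, limma adjusted p = 0.191) and Gpr35 with the 1000 bp window (0.24, limma adjusted p = 0.0586). Without PL2F8 replicate 1, 9 of the 34 calls of a rise were lost, among them Gpr119, Gpr120, Gpr155, Gpr173 and Gpr37l1. Of the 6 genes for lipid, metabolite and ion receptors, only 2 had a peak on all 6 arrays, beside 38.6% of all genes. Their gene values in AB2.2 ranged from -0.78 at Gpr31c to 1.49 at Gpr120. Of 8 adhesion receptors, 5 were called higher and none lower, and 62.5% is near the 63.5% of all genes. Gpr124, which endothelial cells use to enter the developing brain, differed by -0.06 (SE 0.08, limma adjusted p = 0.55). Gpr158, a class C receptor of the brain, was called higher by 0.34 (SE 0.07).

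Of 5 genes for receptors of peptides or related to chemokine and complement receptors, 60% were called higher, beside 63.5% of all genes. These were Gpr83, Gpr37l1 and Gpr77. Gpr37 was called lower, as were 8.5% of all genes, and Gpr25 differed by -0.07 (SE 0.07). In the cyclic AMP raising family, Gpr12 rose by 0.75 (SE 0.11, limma adjusted p = 0.00056), whereas Gpr6 differed by -0.19 (SE 0.08, limma adjusted p = 0.067) and Gpr3 by -0.16 (SE 0.14, limma adjusted p = 0.329). Of 19 brain and other orphans of the rhodopsin family, 12 were called higher (63.2%, beside 63.5% of all genes) and none lower (beside 8.5%). Of 9 genes for proteins distant from these families, many of them inside the cell, 5 were called higher (55.6%), among them Gpr180 with 0.62 (SE 0.07) and Gpr155 with 0.23 (SE 0.09). The call of Gpr155 was lost with the median of probes (-0.09), with quantile normalization (0.04), without AB2.2 replicate 2 (0.11) and without either PL2F8 replicate. The ocular albinism gene Gpr143, in the same group, differed by 0.01 (SE 0.07).

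Levels also differed within these kinds of receptor. Among the adhesion receptors, Gpr64 of the epididymis read 1.16 and 1.00 in AB2.2, 1.58 and 1.5 in PL2F8, 1.70 with control siRNA and 1.68 with Brca1 siRNA. Gpr116, which limits surfactant in the lung, read 0.16 and 0.17 in AB2.2, 0.35 and 0.37 in PL2F8, -0.06 with control siRNA and -0.03 with Brca1 siRNA. Gpr64 thus lay lowest in AB2.2 and Gpr116 lowest in R1. Gpr98, a very large adhesion receptor of hair cells, ranged only from 0.68 to 0.90 over the 6 arrays.

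The zinc receptor Gpr39 read 0.31 and 0.28 in AB2.2, 0.98 and 0.95 in PL2F8, 0.72 with control siRNA and 0.90 with Brca1 siRNA. Gpr77, a receptor for complement C5a with 2 listed starts, read -0.09 and -0.15 in AB2.2, 0.44 and 0.39 in PL2F8, 0.35 with control siRNA and 0.62 with Brca1 siRNA. Both genes had their lowest values in AB2.2. Gpr162, an orphan of the brain, was highest in R1, with 2.05 and 1.99 beside 1.34 and 0.99 in AB2.2 and 1.18 and 1.08 in PL2F8. Gpr101 of the hypothalamus read between 1.48 and 1.73 on all 6 arrays, and Gpr25 between 1.54 and 1.70, so the groups overlapped at both.

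**Figure D4:**
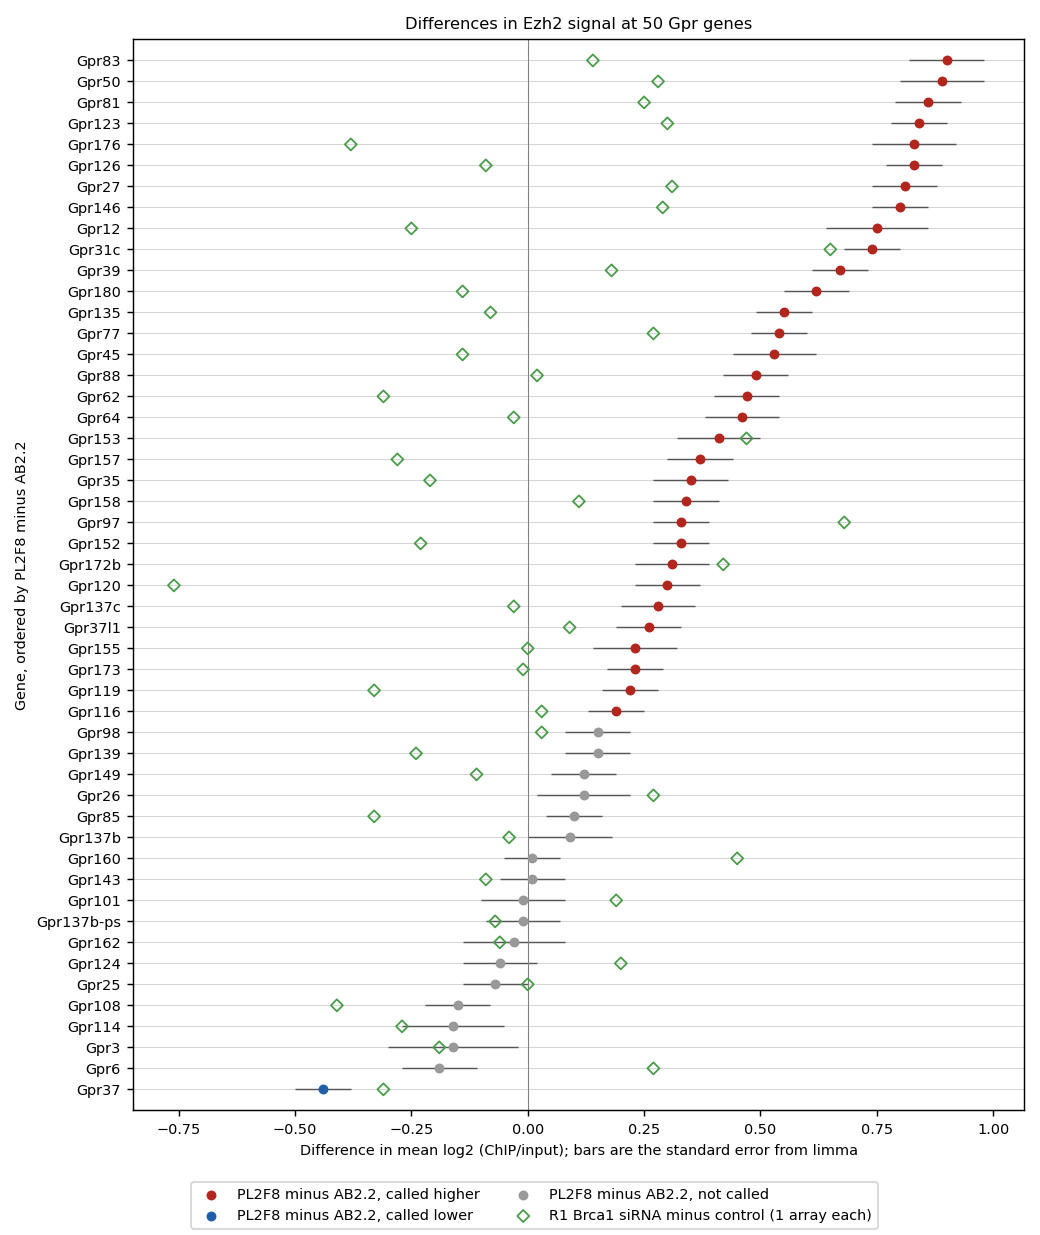
Differences in log2 ratio (horizontal axis) at 50 of the 53 Gpr genes (vertical axis, ordered by PL2F8 minus AB2.2), with filled points for PL2F8 minus AB2.2, bars for the standard error from limma over 2 arrays per line, and open diamonds for R1 Brca1 siRNA minus control, 1 array each. Gpr37 is the only gene called lower of those drawn, and the diamonds lie between -0.76 and 0.68.

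The window mean can hide a local change, so each gene was also read at its summit, the 5 neighbouring probes with the highest mean over the 6 arrays, a measure added after the data had been seen and placed with the same arrays that are then compared. In the 35 genes whose peak was listed on all 6 arrays, 28 summits lay downstream of the start, at a median of 363 bp. At the summit, 25 Gpr genes were higher in PL2F8 and 13 lower by limma at an adjusted p under 0.05, where all genes gave 50.2% and 15.3%. The median summit difference was 0.56, beside 0.52 for all genes. The count of lower summits fell when either PL2F8 replicate was left out, and the share of all genes in those fits is not given here.

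At 4 genes the window was called higher and the summit lower, among them Gpr152, Gpr158 and Gpr37l1 (7.55% of the Gpr genes, beside 2.63% of all genes). The summit of Gpr152, 331 bp downstream, read 2.67 and 2.41 in AB2.2, -0.39 and -0.48 in PL2F8, 0.12 with control siRNA and 0.39 with Brca1 siRNA. Its difference of -2.98 (SE 0.17, limma adjusted p = 3.3e-05) was the largest summit fall among the 53 genes, and AB2.2 alone had this signal. Further upstream the order turned, as the authors' deposited peak of PL2F8 replicate 2 lay at chr19:4138946-4139279 and that of AB2.2 replicate 1 at chr19:4140025-4140384. At 8 genes the summit was lower while the window did not pass the test (15.1% of the Gpr genes, beside 6.78% of all genes). Gpr3 was one of them, with a summit of 4.17 and 3.57 in AB2.2, 2.39 and 2.31 in PL2F8, 2.97 with control siRNA and 2.31 with Brca1 siRNA, a difference of -1.52 (SE 0.22, limma adjusted p = 0.00093). The summit of Gpr37 fell as well, by 0.77 (SE 0.17, limma adjusted p = 0.0065).

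In the other direction, the summit of Gpr81 read 0.52 and 0.16 in AB2.2, 2.93 and 2.75 in PL2F8, 1.67 with control siRNA and 1.94 with Brca1 siRNA, the largest summit rise among the 53 genes with 2.5 (SE 0.19, limma adjusted p = 7.9e-05). Gpr85, whose window did not pass the test, had a summit of 1.72 and 1.79 in AB2.2 and 3.23 and 3.26 in PL2F8, a rise of 1.49 (SE 0.16, limma adjusted p = 0.00025). Gpr101, Gpr26 and Gpr98 also had a summit called higher and a window that did not pass.

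**Figure D5:**
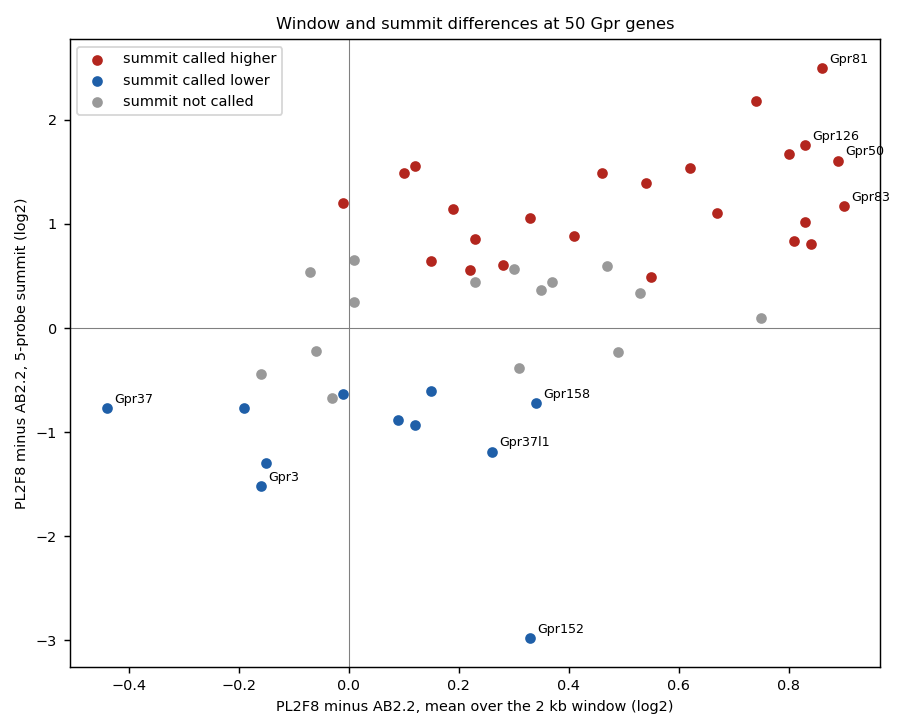
PL2F8 minus AB2.2 over the 2000 bp window (horizontal axis, log2) and at the 5-probe summit (vertical axis, log2) for 50 of the 53 Gpr genes, coloured by the limma call at the summit. Gpr152 has a window difference of 0.33 and a summit difference of -2.98, and Gpr81 has 0.86 and 2.5.

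Listed peaks were present at 42 and 38 Gpr genes in AB2.2 (beside 58.5% and 51.6% of all genes), at 39 and 40 in PL2F8 (68.8% and 67.5%), and at 44 and 43 in R1 with control and Brca1 siRNA (66.7% and 68.5%). The PL2F8 arrays thus listed fewer Gpr genes than AB2.2 replicate 1, although PL2F8 listed more of all genes. At a false discovery rate at or under 0.05 the order turned, with 31 and 30 Gpr genes in AB2.2 and 34 on each PL2F8 array. PL2F8 above AB2.2 is also the order of all genes without this limit. The share of all genes at this rate is not given here. Of the Gpr genes, 8 had a peak on 1 array alone, beside 20.4% of all genes. Gpr81, Gpr85 and Gpr31c had peaks on both arrays of PL2F8 and on none of AB2.2, as did 15.7% of all genes. The reverse held for 2 Gpr genes, of which Gpr149 is described here, beside 5.49% of all genes. These are calls of the authors' peak caller with no test between lines.

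On the AB2.2 and PL2F8 arrays the authors' deposited false discovery rates at these 4 genes lay between 0.0374 and 0.180. They were 0.0466 and 0.0374 at Gpr81 (chr5:124329523-124329882), 0.121 and 0.163 at Gpr85 (chr6:13789065-13789600), and 0.138 and 0.114 at Gpr31c (chr17:13244363-13244602). At Gpr149, an orphan of the ovary and brain, they were 0.180 and 0.0508. Gpr149 read 0.41 and 0.51 in AB2.2, 0.59 and 0.56 in PL2F8, 0.34 with control siRNA and 0.24 with Brca1 siRNA. The PL2F8 arrays thus lay above AB2.2 over the window, where the difference of 0.12 did not pass the test, while the summit was called lower in PL2F8 with -0.93 (SE 0.18, limma adjusted p = 0.0034).

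In R1 cells, Brca1 siRNA left the Gpr genes spread evenly around the control: 26 of 53 were above 0, and the median difference was 0.0, as it was for all genes. With 1 array per group there is no test. Gpr97 and Gpr31c were higher by at least 0.5 with Brca1 siRNA, beside 3.28% of all genes, and Gpr120 was lower by at least 0.5, beside 2.78%. The difference was 0.68 at Gpr97 and 0.65 at Gpr31c. Gpr153 followed with 0.47 and Gpr160 with 0.45. Gpr153 read 0.39 with control siRNA and 0.86 with Brca1 siRNA, and Gpr160 read 0.07 and 0.52. The authors' deposited peaks at Gpr97 and Gpr160 were listed on the Brca1 siRNA array alone, 3058 and 3061 bp upstream of the start and so outside the window. Both genes were thus in the set only through the array where they read highest.

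The lowest R1 difference, -0.76 at Gpr120, came from the upstream side. At 958 bp upstream the control siRNA array read 4.55 and the Brca1 siRNA array 1.44, while the other 4 arrays read between 1.26 and 2.03. All 6 arrays were above the array median there, with the control siRNA array the highest. Around the start of Gpr120 the summit read 4.02 and 3.64 in R1. Next came Gpr108 with -0.41, Gpr176 with -0.38, and Gpr119 and Gpr85 with -0.33 each. Gpr119 read 0.57 with control siRNA and 0.24 with Brca1 siRNA, and Gpr85 read 0.51 and 0.19. The only listed peak of Gpr119 was on the control siRNA array, so it was in the set only through the array where it read highest. At 478 bp downstream of the Gpr85 start the control siRNA array read 4.67 and the Brca1 siRNA array 1.52, beside 3.32 and 3.16 in AB2.2 and 6.15 and 6.0 in PL2F8. The same 5 probes of the Gpr85 summit gave 2.77 and 1.08 in R1, a difference of -1.69. These R1 values have no replicate check. At 8 Gpr genes that were called higher in PL2F8 without overlap of the lines, the Brca1 siRNA array was lower than control by at least 0.2, beside 11.3% of all genes.

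Of the genes that act downstream of these receptors, 52 of 71 listed were measured, and 33 were called higher (63.5%, beside 63.5% of all genes) and 5 lower (9.62%, beside 8.5%) in PL2F8 by limma, with a median difference of 0.32 beside 0.30 for all genes. The largest rise, 1.34 (SE 0.07, adjusted p = 5.5e-05), was at Rgs19, which speeds the shut-off of G protein alpha subunits. Gnai1, an inhibitory alpha subunit, rose by 1.15 (SE 0.08, adjusted p = 5.9e-05), from 0.56 ± 0.13 to 1.71 ± 0.07. Rgs10, which acts like Rgs19, rose by 1.06 (SE 0.09, adjusted p = 7.1e-05). The adenylyl cyclase Adcy7 rose by 1.04 (SE 0.08, adjusted p = 6.7e-05). The largest falls were at Gngt1, the gamma subunit of rod transducin, with -0.80 (SE 0.06, adjusted p = 6.5e-05), and at Gna13, an alpha subunit that signals to small GTPases, with -0.75 (SE 0.07, adjusted p = 8.8e-05). Gng2, a gamma subunit, differed by -0.58 (SE 0.06, adjusted p = 0.00015) and Gnb5, a beta subunit of neurons and the retina, by -0.45 (SE 0.08, adjusted p = 0.0015). A peak on all 6 arrays was listed for 55.8% of these genes.

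Of 130 genes for olfactory receptors, a far larger family of the same superfamily, 47 were called higher and 44 lower in PL2F8 by limma, with a median difference of -0.04. Among 76 neurotransmitter receptor genes, 51 were called higher and 3 lower, with a median of 0.37. Differences between these groups of genes and the Gpr genes were not tested.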

How the data were processed

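Ezh2 immunoprecipitate and input DNA were hybridised together on NimbleGen promoter arrays, per the labels. The authors deposited log2 ratios of ChIP over input for 714900 probes, normalized by an unnamed method, and peak lists per array with a score, a false discovery rate (a p-value type of measure, as a fraction) and the nearest start, per the file headers. Peak scores correlated at r between 0.969 and 0.986 with the fourth highest deposited log2 value inside the peak, which sets scale and direction. The peak caller, the build of the coordinates and the normalization method were not given in the sources used here.

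Each array was centred on its median, with no other normalization. A gene value is the mean over probes within 2000 bp of any listed start, with at least 5 probes. This gave 9612 of 9614 named genes. The test of PL2F8 against AB2.2 was the moderated linear model of limma 3.58.1 under R 4.3.3 (4 arrays, lmFit then eBayes, both directions, p-values adjusted over all genes after Benjamini and Hochberg, threshold 0.05), tested on simulated data. The R1 groups have 1 array each and no test. Tables were handled in Python 3.11.15. The number of arrays limits the precision.

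The genes, the groups of receptors, the pathway list and the comparison families were chosen with earlier results of these data known. Named were the 8 highest and 6 lowest genes, the 8 largest rises and up to 8 largest falls among called genes, the 5 highest and 5 lowest R1 differences, genes with peaks on both arrays of one line and neither of the other, and the 4 largest rises and falls of the pathway; others are given by their kind of receptor. Some genes that these rules name are counted but not reported here or drawn. Promoters came from RefSeq on GRCm38.p6, matched by the NCBI gene number listed with the peaks. With 38 of 53 genes matched (71.7%, under the 80% needed), the planned comparison of CpG content with signal is void. Alternatives were quantile normalization, scaling to 1 median absolute deviation, the median of probes, a 1000 bp window, the start with the highest signal, a replicate block, leaving out each replicate, and, added after the data were seen, probes at 1 position only, the counts without Gpr137b, Gpr137b-ps and Gpr31c, and the summit.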

Additional observations from a re-analysis of the deposited data

Results flagged for a closer look

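At 8 Gpr genes (15.1%) the R1 arrays and the lines differed in opposite directions: limma called the gene higher in PL2F8, both PL2F8 arrays lay above both AB2.2 arrays, and the Brca1 siRNA array lay below the control siRNA array by at least 0.2. Of all 9612 genes, 11.3% met the same rule. R1 has 1 array per group, and the difference between the comparisons was not tested. The largest gap was at Gpr176, with an R1 difference of -0.38 beside 0.83 for PL2F8 minus AB2.2. At Gpr120 the values were -0.76 and 0.30, and at Gpr12 they were -0.25 and 0.75. Gpr62, an orphan of the brain, had -0.31 and 0.47. Gpr157 had -0.28 and 0.37, Gpr35 had -0.21 and 0.35, Gpr119 had -0.33 and 0.22, and Gpr152 had -0.23 and 0.33. Gpr119 was in the set only through its peak on the control siRNA array, where it read highest. With the median of probes Gpr62, Gpr119, Gpr120 and Gpr157 lost the call of a rise between the lines. With the 1000 bp window Gpr35 and Gpr152 lost it, while Gpr176 and Gpr12 kept it in both settings. The summit of Gpr152 went the other way in both comparisons, by -2.98 between the lines and 0.27 in R1.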

How the results depend on the processing

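Of the 35 genes called between the lines, 19 kept their call in all 11 alternatives. Gpr31c also kept it but could not be run with probes at 1 position only. The count of genes called lower, 1 as reported beside 8.5% of all genes, was 12 with quantile normalization, beside 20.5%. With the replicate block it was 5, beside 10.7%. It was 2 each with 1 median absolute deviation, beside 9.87%, and with the 1000 bp window, beside 7.53%. Leaving out 1 array gave medians from 0.22 to 0.35, beside 0.25 to 0.34 over all genes. Calls from these fits assume that the lone array varies like the others. The median, 0.30 as reported, was 0.15 with quantile normalization and 0.43 with the 1000 bp window. Equal replicate numbers pair no samples in the labels, and the deviations of replicate 1 in AB2.2 and PL2F8 correlated at 0.245 over genes. The replicate block called 36 higher, beside 69.3% of all genes.

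With the median of probes 10 genes changed sign, and 5 of them passed the test there or as reported: Gpr155 (-0.09), Gpr162 (0.35), Gpr173 (-0.0025), Gpr6 (0.41) and Gpr85 (-0.40). Of 7 genes that changed sign with quantile normalization, Gpr139 and Gpr143 (-0.19 each) passed there, as did Gpr101 (0.55) of 4 with the 1000 bp window and Gpr162 of 5 without AB2.2 replicate 1 (0.14, against -0.21 without AB2.2 replicate 2). The causes were not tested. In R1, 5 genes were higher by at least 0.5 with the median of probes, beside 5.48% of all genes. With the 1000 bp window 3 were lower by at least 0.5, beside 5.93% of all genes. Leaving out 1 array gave 17 to 34 higher and 5 to 18 lower summits. At a false discovery rate at or under 0.05, the count of Gpr genes with a listed peak on each array stayed within 1.5 times of that reported. The count with a peak on all 6 arrays fell below 35. At Gpr124, for example, the peak of the control siRNA array had a rate of 0.0659. The count of genes called higher in PL2F8 stayed within 1.5 times under every alternative tried.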
